A study of Homo sapiens with 24 samples.

Results

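Ribosome biogenesis genes encode the proteins that transcribe, modify, cut and fold ribosomal RNA and load it with ribosomal proteins. The set described here holds 44 genes listed by symbol. The rule that finds their probe sets uses no difference between groups, but the list was drawn up with earlier results of these data known. Of these, 40 were measured by a probe set that carried their symbol and no other, out of 18417 genes measured that way on the array. The measured members comprise 3 of 3 RNA polymerase I subunits, 6 of 7 small nucleolar ribonucleoprotein (snoRNP) proteins, 4 of 4 nucleolar RNA-binding proteins, 13 of 13 small subunit assembly factors and 14 of 17 large subunit assembly factors. NOP56, PPAN, GNL3 and DDX18 had no probe set of their own symbol and are not analysed here.

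The cells were MCF10A, an established non-tumorigenic line of human breast epithelium, and their total RNA was read on 24 arrays of the Affymetrix Human Gene 1.0 ST type. Cells were transfected with Oligofectamine and received 1 of 3 oligonucleotides: against miR-20a (called si-miR-20a), against miR-671-5p (called si-miR-671), or without a target (called control). RNA was taken at 0, 30, 60 and 120 min of epidermal growth factor (EGF), which gave 12 groups of 2 replicates. The growth medium of every group, the controls included, held insulin, cholera toxin, hydrocortisone, horse serum and EGF, and no source used here says whether EGF was withdrawn before stimulation. The protocol also names miR-212, which was not analysed here. No group was left without EGF at the later times, so EGF and elapsed time or handling cannot be told apart. The replicates are labelled biological, but nothing says whether they came from separate cultures, so p-values measure the spread between these arrays.

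Ribosome production starts in the nucleolus, where RNA polymerase I makes 1 long precursor RNA. snoRNPs then guide methylation and pseudouridylation of it, and a large assembly called the small subunit processome forms on its leading end while other factors build the large subunit. Growth factors raise ribosome production in many cell types, and the transcription factor MYC is known to act on many genes of this pathway.

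The 2 microRNAs that the oligonucleotides were directed at are shown to define the transfections, with the seed, bases 2 to 8 from the 5′ end, in capitals. The sequences are RefSeq's, on build GRCh38.p14, at chr13:91351072-91351094 on the plus strand for miR-20a-5p and at chr7:151238449-151238471 on the plus strand for miR-671-5p. The seeds differ, and the mature microRNAs themselves were not measured.
hsa-miR-20a-5p: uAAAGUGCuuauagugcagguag
hsa-miR-671-5p: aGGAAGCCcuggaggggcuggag

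Values are log2 levels as deposited, 1 per probe set, and differences are log2 changes with the standard error of the model (SE). A member was called where the adjusted p was under 0.05 (limma's moderated test, Benjamini-Hochberg adjustment over 19460 named probe sets). The array medians lay between 6.56 and 6.57, and the 2 replicates of a group correlated at 0.973 to 0.992 across probe sets. The basal epithelial keratins KRT5 (median 12.7) and KRT14 (11.9) were high, while the leukocyte marker PTPRC (4.34) and the progesterone receptor PGR (4.85) were low, and the luminal keratins KRT8 (10.8) and KRT18 (11.2) were also high. Groups stood apart from control to different degrees. The si-miR-671 arrays differed from control with an SD over probe sets of 0.333 at 60 min and 0.313 at 120 min, against 0.208 at 0 min and 0.236 at 30 min. For si-miR-20a the SD was 0.255 at 0 min, 0.279 at 30 min, 0.293 at 60 min and 0.308 at 120 min. At 120 min these SDs were close. Such an SD also holds the spread between replicates, which at 120 min was 0.305 for si-miR-671 and 0.229 for si-miR-20a. At that time 10.1% of named probe sets passed the threshold against control for si-miR-20a and 5.58% for si-miR-671. Principal components were computed on the most variable named probe sets only, and the first held 34.7% of the variance of these. The 3 lowest arrays on it were si-miR-20a 60 min replicate 1, si-miR-671 120 min replicate 2 and si-miR-671 30 min replicate 1. They scored -33.4, -26.9 and -22.0, against -0.543, 12.5 and -0.662 for the other replicate of each group. In bulk RNA, fewer cells expressing a gene and less RNA per cell cannot be told apart.

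All 40 members were measured at levels above the median of the named probe sets (7.18). Their means over 24 arrays ran from 7.28 for NOC3L to 12.4 for NPM1, with a median of 9.06. Levels of different probe sets are not a measure of transcript abundance between genes. The SD between replicates, pooled over groups, ran from 0.0378 for GRWD1 to 0.223 for NHP2, with a median of 0.0781 over the members.

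Across EGF time, the set moved late. At 30 min no member was called, beside 0.766% of named probe sets, and the members' median change was -0.01. The 1 member with an unadjusted p under 0.05 at that time was LYAR, at -0.14 ± 0.05 (limma adjusted p = 0.65). At 60 min 4 of the 40 members (10%) were higher and none lower, beside 2.16% of named probe sets higher and 0.493% lower. These were RRP12, RRS1, NIP7 and DDX21. Of the 15 members with an unadjusted p under 0.05 at 60 min, 14 were higher. The share of all named probe sets under that unadjusted threshold was not counted at 30 or 60 min. At 120 min 25 of the 40 members (62.5%) were higher and none lower, beside 7.13% of named probe sets higher and 6.27% lower. The members' median change at 120 min was 0.22, against 0.01 over all named probe sets. Among the 9330 named probe sets at least as bright as the dimmest member, 964 (10.3%) were higher and 818 (8.77%) lower at 120 min, with a median change of -0.01.

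**Figure D1:**
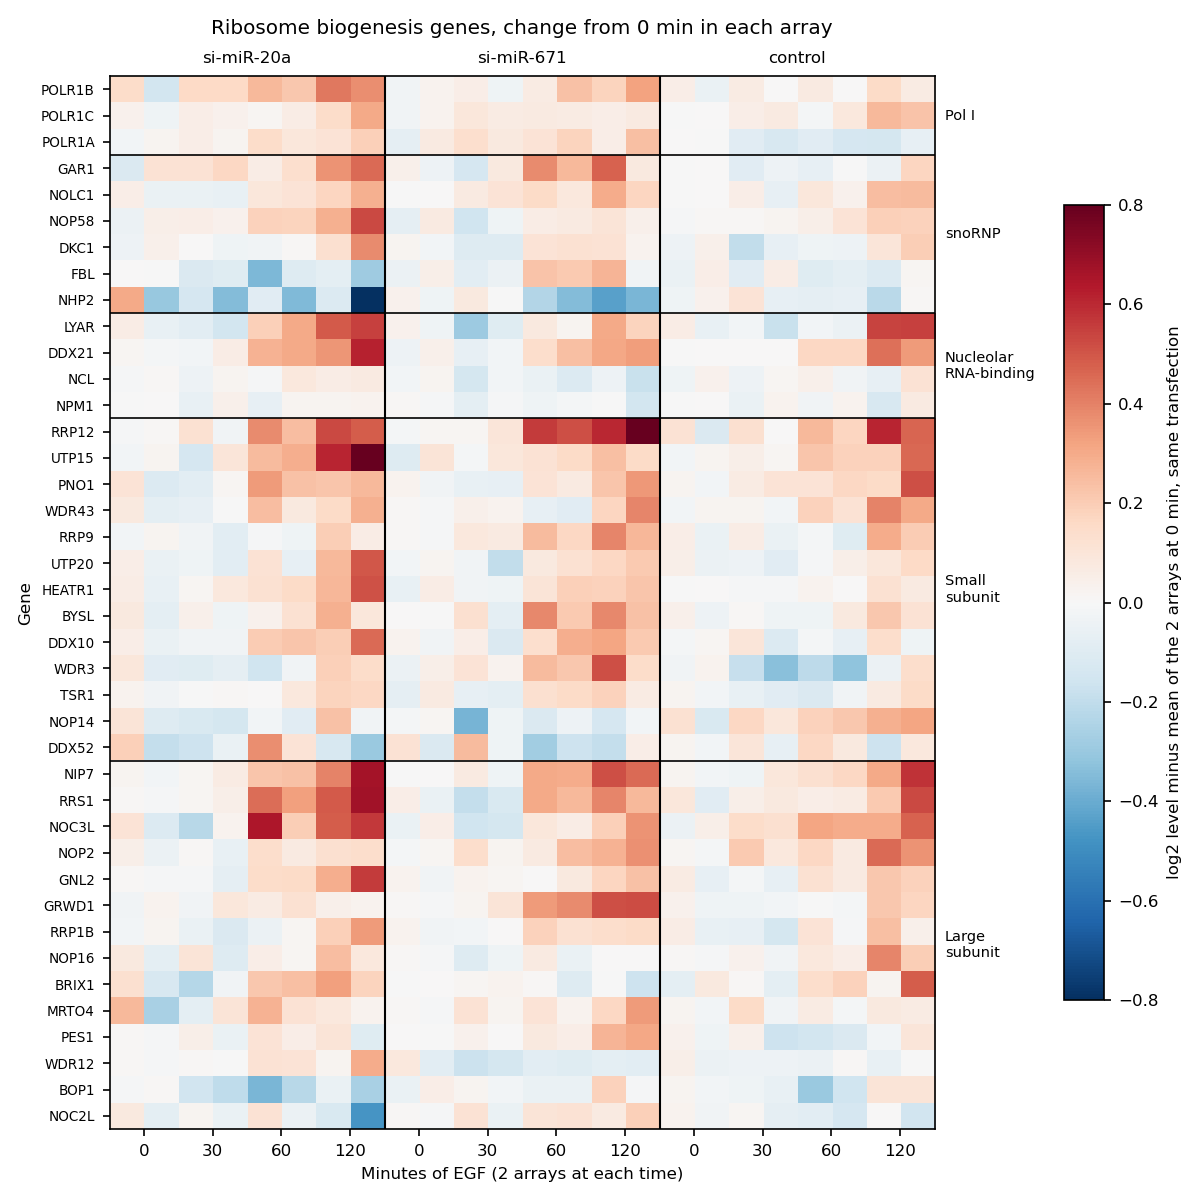
Each row is a member, grouped by role, and each column is 1 of 24 arrays, with si-miR-20a, si-miR-671 and control from left to right and 0, 30, 60 and 120 min of EGF within each. Colour gives the log2 level minus the mean of the 2 arrays at 0 min of the same transfection, and the scale ends at -0.8 and 0.8. The columns of 120 min are red in all 3 transfections for RRP12, NIP7, LYAR and DDX21, while NCL and NPM1 are pale and NHP2 is darkest blue in 1 si-miR-20a array at 120 min.

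RNA polymerase I synthesises the ribosomal RNA precursor. POLR1B, its second largest subunit, had a lowest, median and highest level of 8.37, 8.62 and 8.73 in the 6 arrays at 120 min, against 8.16, 8.35 and 8.45 in the 6 arrays at 0 min, a change of 0.25 ± 0.06 (limma adjusted p = 0.0065). POLR1C, a subunit shared with RNA polymerase III, rose by 0.18 ± 0.04 (adjusted p = 0.0084), and its 6 arrays at 120 min all lay above the 6 at 0 min. POLR1A, the largest subunit, had 8.28, 8.42 and 8.57 at 120 min against 8.26, 8.39 and 8.42 at 0 min, overlapping ranges with a change of 0.06 ± 0.05 (adjusted p = 0.42).

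Of the 6 snoRNP proteins, 4 passed the threshold at 120 min, all of them higher. NOP58, a core protein of the box C/D particles that guide methylation, had 10.76, 10.83 and 11.07 at 120 min against 10.49, 10.64 and 10.80 at 0 min, a change of 0.22 ± 0.05 (limma adjusted p = 0.0065). FBL, the methyltransferase of the same particles, had 10.16, 10.29 and 10.60 against 10.21, 10.34 and 10.54, and its change of -0.03 ± 0.06 did not pass. The 2 partners in 1 particle showed different values, NOP58 past the threshold and FBL not, and the difference between them was not tested.

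The box H/ACA particles guide pseudouridylation. DKC1, their pseudouridine synthase, had 9.74, 9.82 and 10.06 at 120 min against 9.60, 9.70 and 9.78 at 0 min, with a change of 0.16 ± 0.05 (limma adjusted p = 0.045), and its call was lost without any of 8 of the 12 arrays. Its core partner GAR1 rose by 0.25 ± 0.07 (adjusted p = 0.03), a call also lost without any of 8 arrays, and NOLC1, which binds both kinds of particle, rose by 0.24 ± 0.04 (adjusted p = 0.0014). NHP2, another core H/ACA protein, had 8.01, 8.67 and 8.88 against 8.59, 8.96 and 9.20, and its change of -0.33 ± 0.12 did not pass (adjusted p = 0.087). The lowest NHP2 level, 8.01, came from si-miR-20a 120 min replicate 2, whose partner array read 8.78. A second NHP2 probe set changed by -0.34.

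Among the nucleolar RNA-binding proteins, LYAR and DDX21 rose, while NCL and NPM1, 2 abundant nucleolar phosphoproteins, did not pass. LYAR, a zinc finger protein of the nucleolus linked to cell growth, had 9.25, 9.36 and 9.47 at 120 min against 8.75, 8.93 and 9.11 at 0 min, a change of 0.43 ± 0.05 (limma adjusted p = 3.2e-05). DDX21, a helicase that links RNA polymerase I transcription to precursor processing, had 10.35, 10.42 and 10.64 against 10.01, 10.03 and 10.14, a change of 0.40 ± 0.05 (adjusted p = 3.5e-05). For both genes all 6 arrays at 120 min lay above all 6 at 0 min. NCL (nucleolin) had 10.95, 11.00 and 11.16 against 10.93, 11.04 and 11.15, a change of -0.01 ± 0.05. NPM1 (nucleophosmin) had 12.27, 12.39 and 12.47 against 12.36, 12.39 and 12.44, a change of -0.03 ± 0.05. NPM1 has many near-identical pseudogenes and its level is uncertain for that reason. Its other probe sets changed by -0.12, -0.02 and -0.02, the last 2 with identical values.

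Of the 13 small subunit assembly factors, 10 were higher at 120 min. RRP12, which acts in maturation and export of the small subunit precursor, had 8.29, 8.55 and 8.72 at 120 min against 7.71, 7.92 and 8.13 at 0 min. The change of 0.59 ± 0.06 (1.50-fold, limma adjusted p = 4.8e-06) was the largest of the 40. UTP15, of the subcomplex that links precursor transcription to the processome, had 7.97, 8.22 and 8.58 against 7.72, 7.79 and 8.06, a change of 0.41 ± 0.06 (adjusted p = 0.00034) with overlapping ranges.

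HEATR1 and WDR43 belong to the same subcomplex as UTP15 and rose by 0.23 ± 0.05 and 0.28 ± 0.05 (limma adjusted p = 0.0047 and 0.0017). UTP20 (0.23 ± 0.05) and RRP9 (0.24 ± 0.05), a protein of the U3 snoRNP, rose with them, as did PNO1 (0.29 ± 0.06), a factor of the late precursor. BYSL, another late factor, had 8.73, 8.87 and 8.93 at 120 min against 8.54, 8.61 and 8.74 at 0 min, a change of 0.22 ± 0.06 (adjusted p = 0.019). TSR1 (0.14 ± 0.04) and the helicase DDX10 (0.21 ± 0.06) also passed. WDR3 (0.18 ± 0.07), NOP14 (0.11 ± 0.07) and the helicase DDX52 (-0.11 ± 0.09) did not. The calls of BYSL, TSR1 and DDX10 were lost without any of 3, 9 and 8 of the 12 arrays.

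Of the 14 large subunit factors, 7 were higher at 120 min. NIP7, grouped here with the large subunit factors, had 9.59, 9.91 and 10.18 at 120 min against 9.27, 9.45 and 9.53 at 0 min. Its change was 0.49 ± 0.06 (1.40-fold, limma adjusted p = 2.4e-05). RRS1, which helps place the 5S particle, had 8.74, 9.07 and 9.25 against 8.44, 8.60 and 8.75, a change of 0.43 ± 0.06 (adjusted p = 0.00017). NOC3L, a factor of the early large subunit precursor, had 7.15, 7.56 and 7.79 against 6.81, 7.18 and 7.34, a change of 0.39 ± 0.07 (adjusted p = 0.0023). The arrays of the 2 times did not overlap for NIP7 and did for RRS1 and NOC3L.

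NOP2, an RNA methyltransferase, rose by 0.29 ± 0.05 (limma adjusted p = 0.00084) and the GTPase GNL2 by 0.27 ± 0.05 (0.0012). GRWD1, a chaperone of a ribosomal protein, rose by 0.25 ± 0.04 (0.00039), and for NOP2, GNL2 and GRWD1 the arrays of 120 min all lay above those of 0 min. RRP1B passed at 0.18 ± 0.05, a call lost without any of 5 of the 12 arrays.

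PES1, BOP1 and WDR12 form the PeBoW complex, which processes the large subunit RNA, and none of the 3 was called at 120 min. PES1 had 8.81, 8.98 and 9.11 at 120 min against 8.80, 8.85 and 8.91 at 0 min, a change of 0.11 ± 0.05 (limma adjusted p = 0.17). BOP1 had 9.20, 9.41 and 9.50 against 9.27, 9.36 and 9.47, a change of 0.01 ± 0.05, and WDR12 had 8.85, 9.15 and 9.37 against 8.86, 9.08 and 9.36, a change of 0.02 ± 0.05. BOP1 dipped at 60 min, where its 6 arrays read 9.02 to 9.27 with a change of -0.19 ± 0.05 that did not pass (adjusted p = 0.072), and it was higher at 120 min than at 60 min by 0.20 ± 0.05 (adjusted p = 0.036). A second BOP1 probe set changed on average by -0.004 at 120 min. Its means at 60 against 0 min were 8.83 and 9.03 in control cells. They were 9.03 and 9.06 in si-miR-671 cells and 8.98 and 9.20 in si-miR-20a cells. MRTO4, which occupies the place of a stalk protein in the precursor, had 8.16, 8.40 and 8.61 against 7.87, 8.30 and 8.39, a change of 0.13 ± 0.08. NOP16 (0.15 ± 0.05), BRIX1 (0.14 ± 0.08) and NOC2L (-0.08 ± 0.06) did not pass either.

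**Figure D2:**
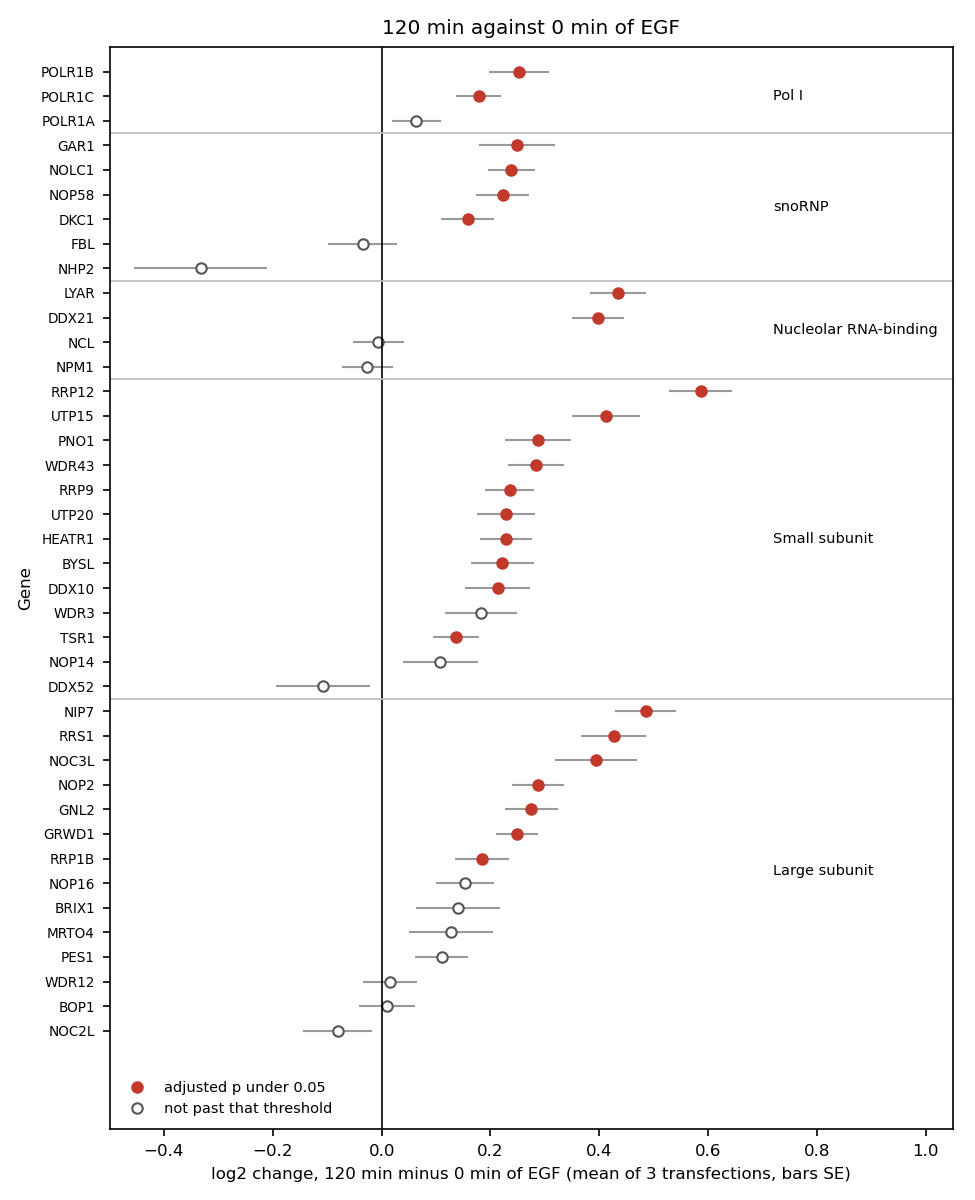
Points give the log2 change of each member at 120 min minus 0 min of EGF, averaged over the 3 transfections, with bars of 1 SE, and members are grouped by role from RNA polymerase I at the top to large subunit factors at the bottom. Filled points are the 25 members with an adjusted p under 0.05, all to the right of 0 from TSR1 at 0.14 to RRP12 at 0.59, and open points are the other 15, of which 9 lie above 0 and 6 below.

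Counted without a model, 20 of the 40 members had both arrays at 120 min above both arrays at 0 min in each of the 3 transfections, beside 5.77% of named probe sets, and none had them below, beside 3.92%. For 9 members all 6 arrays at 120 min lay above all 6 at 0 min, beside 3.23% of named probe sets. They were POLR1C, NOLC1, DDX21, LYAR, RRP12, NOP2, GNL2, NIP7 and GRWD1. Of the 25 called members, 19 kept their call without each of the 12 arrays in turn. A fit of the 12 arrays of these 2 times alone called 13.

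The 4 members called at 60 min had already moved there by a part of the change seen at 120 min. RRP12 stood at 0.35 ± 0.06 (limma adjusted p = 0.0019), DDX21 at 0.22 ± 0.05 (0.022), RRS1 at 0.24 ± 0.06 (0.043) and NIP7 at 0.22 ± 0.06 (0.048). RRP12 kept its call without each of the 12 arrays, while DDX21 lost it without any of 9, RRS1 without any of 11 and NIP7 without any of the 12. When the 4 late arrays of si-miR-671 (60 and 120 min) were left out, no member was called at 60 min, a fit with fewer arrays. The changes over si-miR-20a and control cells alone were 0.26 for RRP12 (limma adjusted p = 0.091), 0.23 for DDX21 (0.1), 0.23 for RRS1 (0.21) and 0.19 for NIP7 (0.27). Between 30 and 60 min RRP12 (0.30 ± 0.06) and DDX21 (0.22 ± 0.05) rose, beside 0.889% of named probe sets higher. Between 60 and 120 min 8 members rose, beside 2.62%, with LYAR the largest at 0.35 ± 0.05 (adjusted p = 0.00064).

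LYAR differed in its timing from RRP12 and DDX21 in the measured values. Its lowest, median and highest levels were 8.75, 8.93 and 9.11 at 0 min, 8.66, 8.76 and 8.98 at 30 min, 8.88, 9.05 and 9.15 at 60 min, and 9.25, 9.36 and 9.47 at 120 min. Its change at 60 min was 0.09 ± 0.05 and was not called. The difference in timing between genes was not tested.

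**Figure D3:**
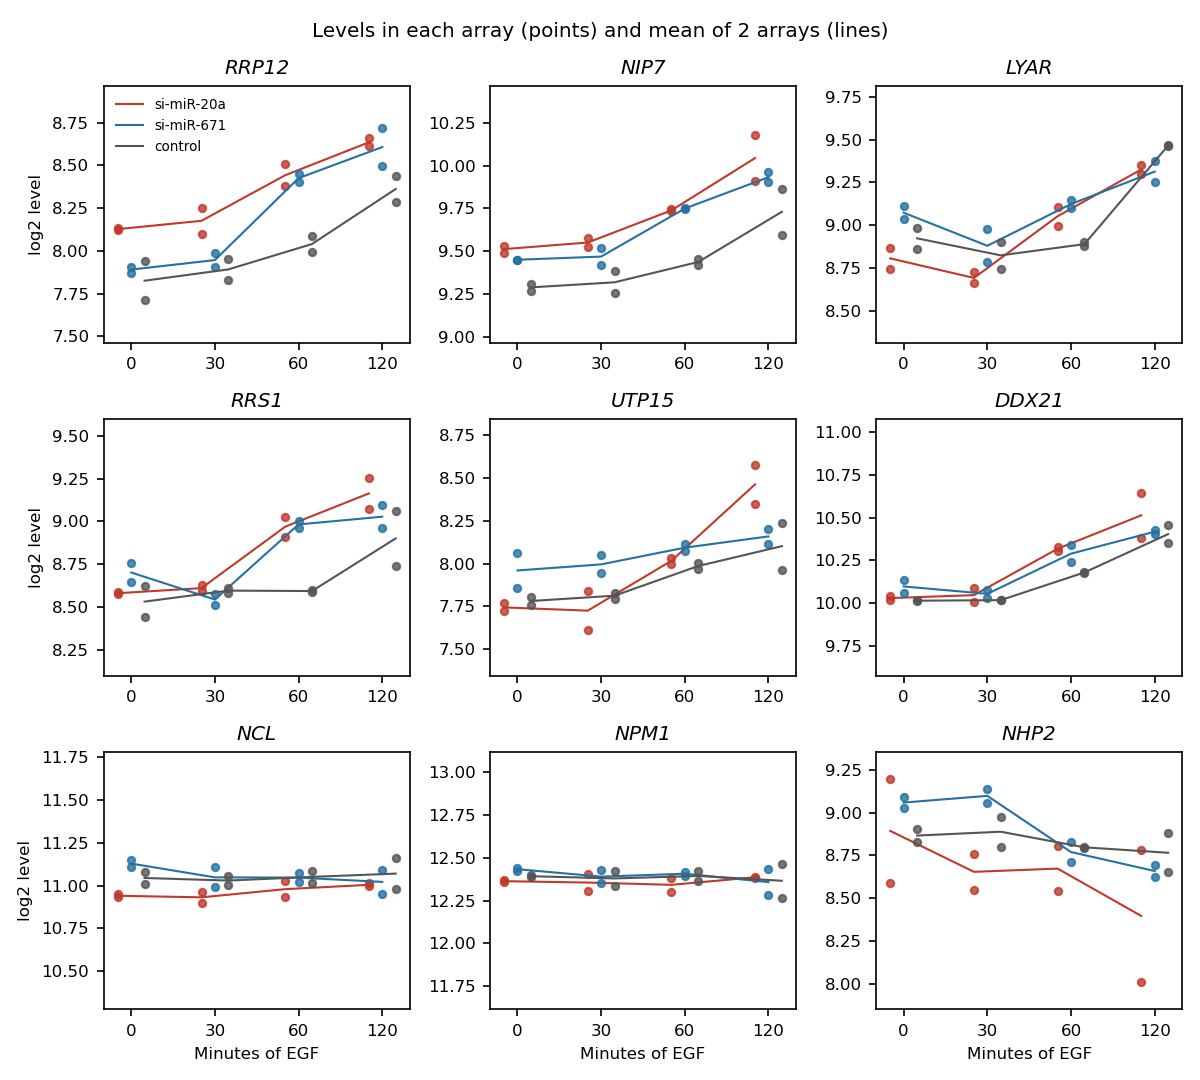
Each panel plots the log2 level of 1 gene against minutes of EGF (axis not to scale in time), with a point for each array and a line through the mean of 2 arrays, for si-miR-20a, si-miR-671 and control. All panels span the same height of log2 level. RRP12, NIP7, LYAR, RRS1, UTP15 and DDX21 end at 120 min above their start in all 3 transfections, NCL and NPM1 show no call, and NHP2 varies most between replicates.

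Within single transfections the same comparison rests on 2 arrays against 2. In si-miR-20a cells 12 members were higher at 120 min than at 0 min and none lower, beside 4.49% of named probe sets higher and 3.14% lower. In si-miR-671 cells 6 were higher, beside 3.22%, and in control cells 6 were higher, beside 2.17%. For probe sets at least as bright as the dimmest member, the shares higher were 6.98%, 4.53% and 3.18% in the same order of cells. DDX21, NIP7 and RRP12, 3 of the 40 members, were higher in each of the 3 transfections, beside 1.41% of named probe sets, and 16 members were higher in at least 1, beside 6.03%. A change above 0 in all 3 was found for 29 members, beside 21% of named probe sets. NHP2 and DDX52 had a change below 0 in all 3, beside 18.5%, none of them called. At 60 min the counts within a transfection were 2 in si-miR-671 cells, beside 1.28% of named probe sets higher, and 0 in the other cells. The 2 were RRP12 (0.53 ± 0.10) and GRWD1 (0.36 ± 0.07).

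RRP12 read 8.66 and 8.61 at 120 min against 8.12 and 8.13 at 0 min in si-miR-20a cells, a change of 0.51 ± 0.10. It read 8.50 and 8.72 against 7.87 and 7.91 in si-miR-671 cells (0.72 ± 0.10), and 8.43 and 8.29 against 7.94 and 7.71 in control cells (0.54 ± 0.10). The arrays of the 2 times were apart in each transfection, with si-miR-20a cells the highest at 0 min. NIP7 read 9.91 and 10.18 against 9.53 and 9.49 in si-miR-20a cells, 9.96 and 9.90 against 9.45 and 9.45 in si-miR-671 cells, and 9.59 and 9.87 against 9.31 and 9.27 in control cells.

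UTP15 had the largest change of a member within si-miR-20a cells, reading 8.35 and 8.58 at 120 min against 7.72 and 7.77 at 0 min (0.72 ± 0.11, limma adjusted p = 0.00079). It read 8.20 and 8.12 against 7.86 and 8.06 in si-miR-671 cells and 7.97 and 8.24 against 7.76 and 7.80 in control cells, without a call in either. GRWD1 had the largest change after RRP12 in si-miR-671 cells, reading 9.54 and 9.54 at 120 min against 9.03 and 9.01 at 0 min (0.52 ± 0.07, adjusted p = 0.00019). In si-miR-20a cells GRWD1 read 9.22 and 9.21 against 9.15 and 9.20, and in control cells 9.28 and 9.24 against 9.10 and 9.03.

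These differences between transfections did not pass their own test. Limma's moderated F over the 3 times called no member for si-miR-20a against control, beside 0.0154% of named probe sets, and none for si-miR-671 against control, beside 0.0514%. UTP15 had the smallest p of the members for si-miR-20a (adjusted p = 0.925, and 0.0437 unadjusted, the 1 member under 0.05). GRWD1 had the smallest for si-miR-671 (adjusted p = 0.290, and 0.00341 unadjusted), with its response at 60 min larger by 0.37 and at 120 min by 0.32 ± 0.09. LYAR was the other member with an unadjusted p under 0.05. Shares of all named probe sets under that unadjusted threshold were not counted.

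Single arrays weighed on the counts within a transfection. The 12 calls in si-miR-20a cells became 4 without replicate 2 at 120 min and 19 without replicate 1 at 120 min. The 6 in si-miR-671 cells became 2 without either replicate at 0 min and 3 without replicate 1 at 120 min. The 6 in control cells became 1 without replicate 2 and 2 without replicate 1 at 0 min.

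The transcription factor MYC was measured beside the set. Its lowest, median and highest levels were 10.71, 10.77 and 10.91 at 0 min, 10.86, 10.96 and 11.16 at 30 min, 11.03, 11.14 and 11.36 at 60 min, and 11.29, 11.35 and 11.50 at 120 min. The change was 0.19 ± 0.05 at 30 min, which did not pass (limma adjusted p = 0.21), 0.37 ± 0.05 at 60 min (0.00056) and 0.58 ± 0.05 at 120 min (2.4e-06). MXD1 (1.16 ± 0.04) and MNT (0.60 ± 0.06), which bind the same partner MAX and oppose MYC, were also higher at 120 min, and MXD4 of the same family was lower (-0.39 ± 0.08). The part of any of these in the members' change was not tested.

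Promoters of the members were read for 2 motifs because so many members moved together. RefSeq windows on GRCh38.p14 were matched by symbol for 33 of the 40 members, and the 250 bases before the most upstream start were searched on both strands. The letters CCGGAAG, a core bound by ETS factors, stood in 14 of 33 members' windows (42.4%), against 12.1% of genes on the array with a window and 8.78% of all 27305 windows. Among members called at 120 min 9 of 20 held it, and among the others 5 of 13. The E-box CACGTG, the core bound by MYC with MAX, reads the same on both strands and stood in 1 of 33 members' windows (3.03%), against 7.83% and 6.46%. Neither reference was limited to genes as bright as the members, so the share at like levels was not counted. A match is a description of these letters in these windows and names no factor that acts there. Bases after the start or farther upstream were not searched, so a window without the letters does not show that the gene lacks them.

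The windows shown are those of the 3 called members with the largest change at 120 min that held CCGGAAG, and that of UTP20, which held the E-box. They were picked after the values were seen. Capitals mark CCGGAAG on either strand or CACGTG, and each runs 5′ to 3′ on the gene's strand toward the start. NIP7 is at chr16:69339522-69339771 (plus strand), DDX21 at chr10:68955920-68956169 (plus), NOC3L at chr10:94362940-94363189 (minus) and UTP20 at chr12:101279855-101280104 (plus).
NIP7: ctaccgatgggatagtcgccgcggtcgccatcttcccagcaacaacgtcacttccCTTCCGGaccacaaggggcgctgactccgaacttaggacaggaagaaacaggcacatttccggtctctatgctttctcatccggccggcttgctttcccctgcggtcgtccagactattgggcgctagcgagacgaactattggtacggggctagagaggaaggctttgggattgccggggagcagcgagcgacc
DDX21: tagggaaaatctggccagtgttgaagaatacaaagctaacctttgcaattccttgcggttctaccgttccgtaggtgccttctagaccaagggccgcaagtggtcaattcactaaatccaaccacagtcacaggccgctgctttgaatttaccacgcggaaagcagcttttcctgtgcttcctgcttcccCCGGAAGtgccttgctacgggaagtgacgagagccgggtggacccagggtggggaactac
NOC3L: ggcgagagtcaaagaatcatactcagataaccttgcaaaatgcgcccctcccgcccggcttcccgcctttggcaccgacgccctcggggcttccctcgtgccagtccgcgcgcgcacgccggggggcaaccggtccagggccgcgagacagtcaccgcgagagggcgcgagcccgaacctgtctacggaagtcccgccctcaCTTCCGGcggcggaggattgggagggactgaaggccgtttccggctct
UTP20: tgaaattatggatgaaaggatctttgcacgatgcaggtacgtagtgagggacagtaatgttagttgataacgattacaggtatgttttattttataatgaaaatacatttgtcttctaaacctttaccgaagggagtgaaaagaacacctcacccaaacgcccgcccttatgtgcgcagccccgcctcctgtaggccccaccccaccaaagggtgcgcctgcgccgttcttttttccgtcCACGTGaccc

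Other genes of ribosome production, from lists that share no gene with the members, were also higher at 120 min, in smaller shares of each list. Of 43 other small subunit factors 16 were higher and none lower, with a median of 0.11, led by PWP2 (0.41 ± 0.07) and UTP3 (0.38 ± 0.05). Of 45 other large subunit factors 14 were higher and none lower, with a median of 0.13, led by URB2 (0.70 ± 0.05) and MAK16 (0.65 ± 0.05). Of 12 other RNA polymerase I factors 3 were higher, among them POLR1G (0.56 ± 0.06) and the initiation factor RRN3 (0.18 ± 0.05), and of 10 other snoRNP factors ZNHIT6 (0.26 ± 0.06) and NUFIP1 (0.25 ± 0.07) were higher. URB2 (0.35 ± 0.05), MAK16 (0.34 ± 0.05), GTPBP4 (0.20 ± 0.04) and UTP3 (0.23 ± 0.05) were higher at 60 min too.

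Ribosomal protein genes themselves had values of the other sign. Of 58 cytosolic ribosomal protein genes none was higher and 13 were lower at 120 min, with a median of -0.16, RPS13 (-0.35 ± 0.07) and RPS3A (-0.32 ± 0.06) among them. Ribosomal protein genes have many near-identical pseudogenes, and their values are uncertain for that reason. Of 53 mitochondrial ribosomal protein genes 1 was higher, MRPS17 (0.30 ± 0.05), and 10 were lower, with a median of -0.10. None of 19 RNA polymerase III genes passed (median 0.01), and of 12 RNA exosome genes DIS3 was higher (0.22 ± 0.06) and EXOSC8 lower (-0.22 ± 0.05). Of 20 mitosis genes 8 were lower at 120 min and none higher, with a median of -0.18. Markers of other cell types at 120 min were 2 of 4 higher for blood and endothelium (VWF and PECAM1, with median levels of 5.98 and 6.43), 0 of 5 for fibroblasts and, for luminal cells, 1 of 6 higher (FOXA1) and 1 lower (GATA3), and their part in the members' change was not tested.

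**Figure D4:**
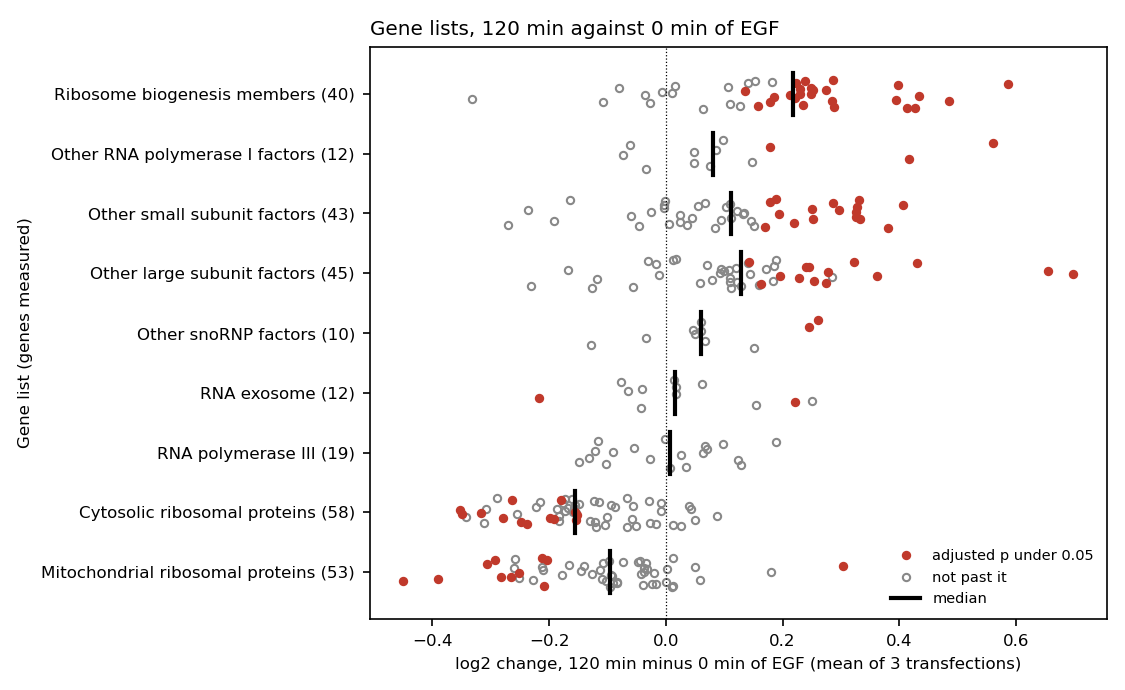
Each point is a gene placed by its log2 change at 120 min minus 0 min of EGF, averaged over the 3 transfections, with the number of genes measured in each list in brackets and vertical scatter for legibility. Filled points have an adjusted p under 0.05 and black bars are medians. The members' median is 0.22, the other assembly lists lie between 0.06 and 0.13, and cytosolic and mitochondrial ribosomal protein genes lie at -0.16 and -0.10.

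Against control, 16 members were higher and 2 lower in si-miR-20a cells averaged over the 4 times, beside 11.9% of named probe sets higher and 12.7% lower. With 40% of members higher, against 11.9% of probe sets, and 5% lower, against 12.7%, the members leaned to the higher side, and their median difference was 0.09, against 0.01 over all named probe sets. Among named probe sets at least as bright as the dimmest member, 17.5% were higher and 19% lower. By role, 8 of 13 small subunit factors were higher and 2 lower, 5 of 14 large subunit factors were higher, 2 of 6 snoRNP proteins and 1 of 3 RNA polymerase I subunits were higher, and none of the 4 nucleolar RNA-binding proteins passed.

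NOC3L had a lowest, median and highest level of 7.01, 7.38 and 7.87 over the 8 si-miR-20a arrays, against 6.81, 7.08 and 7.33 over the 8 control arrays, a difference of 0.37 ± 0.06 (limma adjusted p = 0.00056). RRP12 had 8.10, 8.31 and 8.66 against 7.71, 7.97 and 8.43, a difference of 0.32 ± 0.05 (adjusted p = 0.00029). WDR12 had 9.07, 9.09 and 9.37 against 8.85, 8.87 and 8.95, a difference of 0.26 ± 0.04 (adjusted p = 0.00034). The WDR12 arrays of si-miR-20a cells all lay above those of control cells, while the ranges of NOC3L and RRP12 also hold their change over EGF time and overlapped.

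WDR3 (0.29 ± 0.06), NIP7 (0.27 ± 0.05), UTP20 (0.25 ± 0.05), RRP9 (0.24 ± 0.04), HEATR1 (0.23 ± 0.04), GAR1 (0.22 ± 0.06) and TSR1 (0.18 ± 0.04) were higher too and kept their call without each of the 16 arrays. FBL had 10.18, 10.44 and 10.54 in si-miR-20a cells against 10.16, 10.20 and 10.33 in control cells, a difference of 0.18 ± 0.06 (limma adjusted p = 0.026) that was lost without any of 7 of the 16 arrays. RRS1 (0.18 ± 0.05), PNO1 (0.18 ± 0.05), DDX10 (0.17 ± 0.05), POLR1B (0.16 ± 0.05) and GRWD1 (0.11 ± 0.03) passed and lost their call without any of 3, 1, 9, 2 and 2 arrays.

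Lower in si-miR-20a cells were WDR43 and DDX52. WDR43 had 9.72, 9.87 and 10.08 in si-miR-20a cells against 9.93, 10.02 and 10.35 in control cells, a difference of -0.20 ± 0.04 (limma adjusted p = 0.004) that kept its call without each array. DDX52 had 8.19, 8.39 and 8.85 against 8.51, 8.73 and 8.84, a difference of -0.24 ± 0.07 (adjusted p = 0.03), lost without any of 8 arrays (highest adjusted p 0.0804). WDR43 belongs with HEATR1, which was higher in the same cells, to 1 subcomplex of the processome.

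In si-miR-671 cells 11 members were higher than in control cells averaged over the 4 times and none lower, beside 6.79% of named probe sets higher and 7.7% lower. Among named probe sets at least as bright as the dimmest member, 10.1% were higher and 11% lower. The 11 members were WDR12, NOC3L, UTP20, RRP9, WDR3, NIP7, RRP12, HEATR1, GRWD1, DKC1 and NOLC1, from 0.31 down to 0.15. WDR12 had 9.11, 9.19 and 9.36 over the 8 si-miR-671 arrays, against 8.85, 8.87 and 8.95 over the 8 control arrays, without overlap and with a difference of 0.31 ± 0.04 (limma adjusted p = 0.00014). UTP20 had 7.69, 7.93 and 8.09 against 7.58, 7.68 and 7.82 (0.24 ± 0.05), and RRP9 had 8.48, 8.62 and 8.88 against 8.26, 8.37 and 8.65 (0.24 ± 0.04). DKC1 (0.15 ± 0.04) lost its call without any of 11 of the 16 arrays and RRP12 (0.19 ± 0.05) without any of 3, control replicate 2 at 0, 30 and 60 min.

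Most of these calls were lost without the late si-miR-671 arrays, which also left fewer arrays. When these 4 (60 and 120 min) were left out, the control arrays of those times also left the comparison. It then covered 0 and 30 min alone, 1 member was called, and the members' median difference was 0.06 in place of 0.11. That member was WDR12. The difference over these 2 times was 0.004 for GRWD1 and 0.06 for RRP12. It was 0.11 for HEATR1, 0.12 for WDR3, 0.16 for NIP7, 0.17 for RRP9 and 0.19 for UTP20. The same comparison of 0 and 30 min in the fit of all 24 arrays also called 1 member, beside 1.36% of named probe sets higher. Among named probe sets at least as bright as the dimmest member the share was 1.97%. The member was WDR12 (0.31 ± 0.06, adjusted p = 0.011 by limma). Its call was lost without control 0 min replicate 2 or si-miR-671 0 min replicate 1. Over 60 and 120 min 12 were higher and none lower, beside 7.04% of named probe sets higher and 8.37% lower. These shares were 10.5% and 12.1% among those at least as bright as the dimmest member. The largest differences were those of WDR3 (0.34 ± 0.08) and RRP12 (0.32 ± 0.07), and the count was 7 without si-miR-671 60 min replicate 2. Mitosis genes moved with the same cells. Of 20, 18 were higher in si-miR-671 than in control cells averaged over times (median 0.28, BUB1B at 0.48 ± 0.07), 4 over 0 and 30 min and 13 over 60 and 120 min, and their part in the members' difference was not tested.

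The si-miR-20a comparison was also fuller at the later times. Over 0 and 30 min RRP12 (0.29 ± 0.07), RRP9 (0.25 ± 0.06) and NIP7 (0.23 ± 0.07) were higher and no member lower, beside 4.79% of named probe sets higher and 7.17% lower. Among named probe sets at least as bright as the dimmest member, 7.6% were higher and 11.2% lower. The members' 7.5% higher was close to that share. Of the members called, RRP9 kept its call without each of the 8 arrays, and the count was 1 without control 0 min replicate 2, control 30 min replicate 2 or si-miR-20a 30 min replicate 1. Over 60 and 120 min 14 were higher and WDR43 lower, beside 8.95% higher and 7.75% lower, led by NOC3L at 0.50 ± 0.09 (limma adjusted p = 0.0017). With probe sets dimmer than the dimmest member set aside, these shares were 13.5% and 12.2%. Whether the earlier and later differences themselves differed was tested only through the response over time, which called no member. At single times si-miR-20a cells had 5 members higher than control at 60 min and 5 at 120 min, beside 3.29% and 5.21% of named probe sets, and si-miR-671 cells had 7 and 2, beside 3.09% and 2.5%. Among probe sets at least as bright as the dimmest member these shares were 5.07%, 8.25%, 4.67% and 3.55%. At 0 and at 30 min alone no member was called in either.

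**Figure D5:**
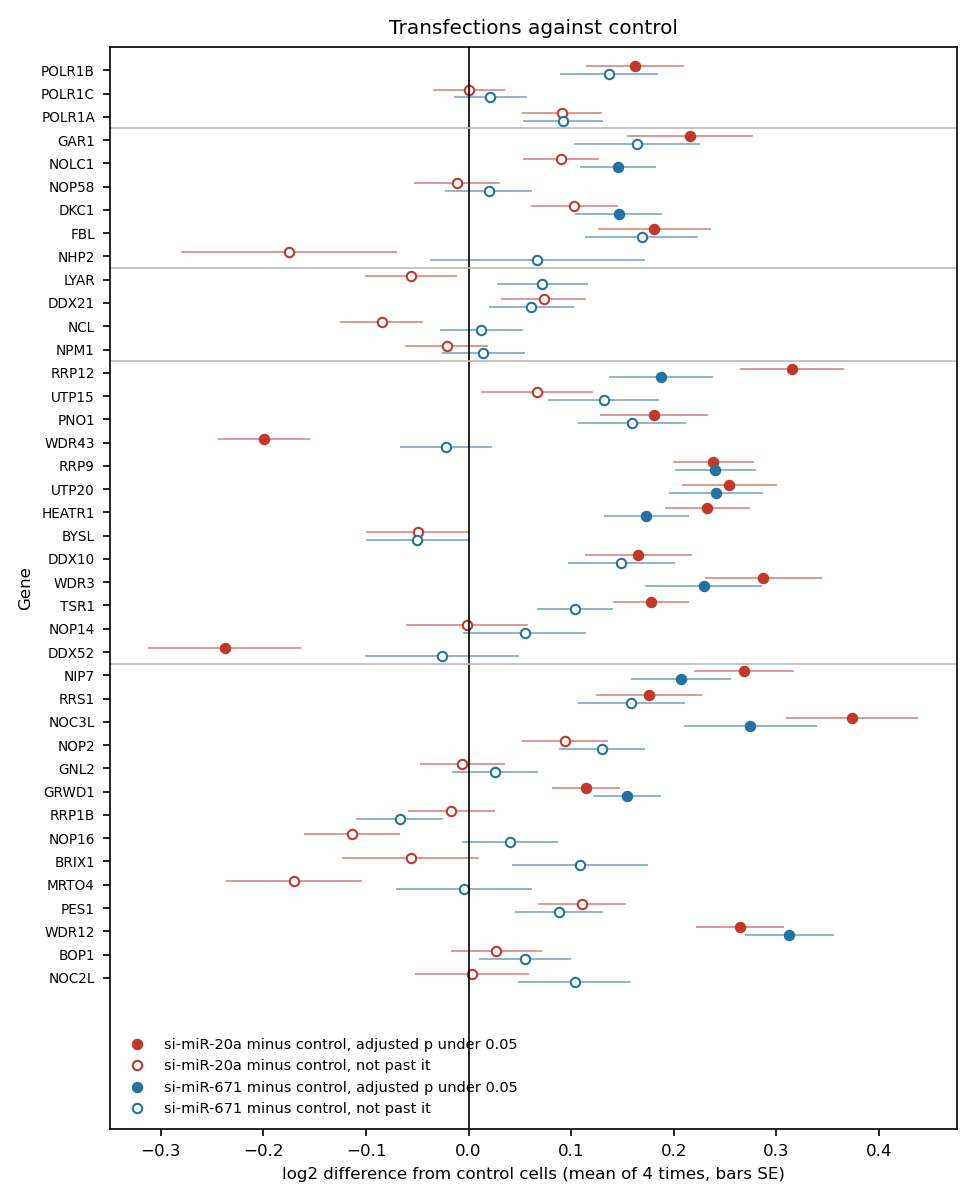
Points give the log2 difference of si-miR-20a minus control and of si-miR-671 minus control for each member, averaged over the 4 times, with bars of 1 SE, in the same order of members as in the plot of the change at 120 min. Filled points have an adjusted p under 0.05, 18 for si-miR-20a and 11 for si-miR-671. The same control arrays serve both comparisons. WDR12, NOC3L, UTP20 and RRP9 lie to the right of 0 for both, and WDR43 and DDX52 to the left for si-miR-20a.

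The comparisons of si-miR-20a and si-miR-671 with control share all 8 control arrays, so their calls are not independent and their overlap is not counted. NOC3L differed from control by 0.37 in si-miR-20a cells and 0.27 in si-miR-671 cells, WDR12 by 0.26 and 0.31, and RRP12 by 0.32 and 0.19. NCL had 10.90, 10.96 and 11.03 in si-miR-20a cells, 10.95, 11.08 and 11.15 in si-miR-671 cells and 10.98, 11.04 and 11.16 in control cells. PES1 had 8.81, 8.93 and 9.01 in si-miR-20a cells, 8.80, 8.85 and 9.11 in si-miR-671 cells and 8.68, 8.82 and 8.95 in control cells. MYC itself differed from control by 0.06 ± 0.05 in si-miR-20a cells and by 0.09 ± 0.05 in si-miR-671 cells, neither past the threshold.

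Set directly against each other, the 2 targeting transfections differed at 1 member averaged over the 4 times, beside 4.54% of named probe sets in either direction. WDR43 was lower in si-miR-20a cells than in si-miR-671 cells, with 9.72, 9.87 and 10.08 against 9.90, 10.01 and 10.39 and a difference of -0.18 ± 0.04 (limma adjusted p = 0.036). That call was lost without any of 11 of the 16 arrays. Another 8 members had an unadjusted p under 0.05, NHP2, NCL, LYAR, DDX52, RRP12, NOP16, BRIX1 and MRTO4, and the share of all named probe sets under it was not counted. Over 0 and 30 min WDR43 (-0.24 ± 0.06), BRIX1 (-0.36 ± 0.09) and LYAR (-0.23 ± 0.06) were lower in si-miR-20a than in si-miR-671 cells, beside 4.77% of named probe sets lower. The members' share of 7.5% was close to the 7.68% among named probe sets at least as bright as the dimmest member.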

How the data were processed

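Total RNA of 24 MCF10A samples, 12 groups of 2, was measured on 1 Affymetrix Human Gene 1.0 ST array each. The deposited table holds log2 values, 1 per probe set and array, made by the authors with Affymetrix Expression Console per the submitters' processing notes. Its summarisation and normalization steps are not given in the sources used here. That the scale is log2 was read from the values, and the near-equal array medians and quartiles show only that the arrays share a distribution.

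Of 33297 probe sets, 19460 carried 1 gene symbol in the platform's annotation and were tested, 1754 carried several and 12083 none. A gene with several probe sets of its own was represented by the brightest, and the others are given beside it. Groups came from the sample labels. A model with 1 mean per group was fitted to all 24 arrays with limma 3.58.1 in R 4.3.3 (12 residual degrees of freedom), and each comparison is a contrast of group means, adjusted by Benjamini-Hochberg over all tested probe sets. Differences of response used limma's moderated F over 30, 60 and 120 min. The fitting code was tested on simulated data. Motifs and ranges were computed with Python 3.11.15.

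By rule, values were given for up to 12 members with the largest called rise and up to 12 with the largest called fall of each comparison, or up to 4 with the smallest p where under 3 passed, for NOP58, FBL, DKC1, NCL, NPM1, POLR1A, POLR1B, BOP1, PES1, WDR12, BYSL, RRP12, RRS1 and MRTO4 in any case, and for up to 6 called genes of each other list. Values of further members were added after they were seen. The members and lists were chosen with earlier results of these data known. Whether equal replicate numbers pair arrays was checked over 66 pairs of groups: correlations of replicate differences ran from -0.57 to 0.55 with a median of 0.063, so the numbers were not taken as pairs. Alternatives covered normalization, filters, variance trend, array weights, the replicate block, fits of fewer groups and each array left out in turn. With 2 arrays a group, the number of arrays limits precision.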

Additional observations from a re-analysis of the deposited data

How the results depend on the processing

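Alternatives were run for 15 counts of members called: the 3 EGF times against 0 min, 120 min within each transfection, each transfection against control (averaged, over 0 and 30 min, over 60 and 120 min), the average difference of si-miR-20a from si-miR-671, and the 2 differences of response. These kept within 1.5 times of the values above except where given here. No alternative was run for the other counts (60 against 30 min, 120 against 60 min, 60 min within a transfection, single times against control, si-miR-20a against si-miR-671 over 0 and 30 min). The count at 60 min was 2 with unnamed probe sets included, 7 with array weights, 0 without the late si-miR-671 arrays and 1 without the 3 arrays at the low end of the first principal component, an alternative chosen after seeing the data. Fitting only the groups compared gave 13 at 120 min on average, 0 within si-miR-20a, si-miR-671 or control cells at 120 min, 0 for si-miR-20a against control over 0 and 30 min, 0 over 60 and 120 min, 0 for si-miR-671 over 0 and 30 min and 4 over 60 and 120 min. Such fits hold fewer arrays. Within si-miR-671 cells at 120 min the count was 3 without the 3 arrays.

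For si-miR-671 against control averaged over times the count was 18 above a mean level of 6 and 18 with array weights. It was 1 without the late si-miR-671 arrays, where 0 and 30 min alone were compared in both sets of cells. Over 0 and 30 min it was 2 with array weights and 0 without the 3 arrays. For si-miR-20a against control over 0 and 30 min the count was 6 with centred arrays, 7 after quantile normalization, 9 above a mean level of 6, 9 with a variance trend and 8 with array weights. Between si-miR-20a and si-miR-671 it was 2 above a mean level of 6, 2 with a trend, 2 without the late si-miR-671 arrays (0 and 30 min alone in both), 0 with unnamed probe sets, 0 in a fit of those groups alone and 0 without the 3 arrays. With the replicate number as a block that count was 2, and the block moved none of the other 14 counts by over 1.5 times.

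With each array left out in turn, counts ranged from 0 to 0 at 30 min, 1 to 2 at 60 min and 19 to 26 at 120 min. At 120 min they ranged from 4 to 19 in si-miR-20a, 2 to 5 in si-miR-671 and 1 to 4 in control cells. Against control they ranged from 14 to 20 for si-miR-20a (1 to 4 over 0 and 30 min, 10 to 18 over 60 and 120 min) and from 9 to 13 for si-miR-671 (0 to 1, and 7 to 13), and from 0 to 3 between both. Over 95 pairs of a named gene and a comparison, 1683 of 1963 alternative values passed the threshold in the same direction, 280 did not pass and 0 were reversed. The pairs held only members already called, at most the 12 largest rises and 12 largest falls of a comparison. For 120 min averaged over transfections they left out DKC1, GAR1, BYSL, TSR1, DDX10 and RRP1B, which lost their calls without single arrays. The alternatives reuse mostly the same arrays, so a kept direction carries little weight. The causes were not tested.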
